A study of Mus musculus with 9 samples.

Results

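The 38 genes described here are G2/M and mitotic genes, chosen by name for their roles in the last phases of the cell cycle, from a table of 48663 named entries. They were chosen with earlier results of these data known. Shares and medians over all genes tested are therefore set beside theirs as a description and not as a test. All 38 were found in the table, and all 38 were among the 15738 genes that passed the filter on low counts. The study measured RNA in virus-specific memory T cells from the spleens of mice infected 30 days earlier with lymphocytic choriomeningitis virus (LCMV), strain Armstrong. CD4 ThpokAD cells were CD4 T cells sorted with the GP66:I-Ab tetramer from Ox40-Cre+ Thpokfl/fl mice. In these mice Thpok, the transcription factor encoded by Zbtb7b that sets the CD4 lineage, is deleted when a T cell is activated and turns on Ox40. CD8 control cells were sorted with the GP33:H-2Db tetramer from Ox40-Cre- mice, and CD4 control cells with the GP66:I-Ab tetramer from Ox40-Cre- mice. Whether the Ox40-Cre- mice carried floxed Thpok, and the ages of the mice, are not given in the sources used here. Each group had 3 libraries. Cre was carried by the CD4 ThpokAD donors only, so effects of Cre and of Thpok deletion cannot be told apart. Lineage, viral peptide and tetramer class likewise differ together between CD8 control and CD4 control cells. The labels do not say that replicates came from separate animals, so a p-value here covers the spread among these libraries, which may be technical, and nothing beyond it.

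A cell that divides first copies its DNA in S phase, then builds up cyclin B and the kinase Cdk1 in G2, and finally separates its chromosomes in mitosis. The genes for this last step are largely silent in resting cells. They are switched on together through 2 promoter elements: the CCAAT box bound by NF-Y, and the cell cycle genes homology region (CHR), which is bound by the MuvB complex either with the repressive DREAM partners or with the activators B-Myb and FoxM1. Memory T cells are mostly resting, and divide slowly to maintain themselves. In RNA from a population of cells, a lower level from fewer dividing cells and a lower level in each dividing cell cannot be told apart.

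The promoters printed here belong to the 3 genes with the smallest adjusted p in CD4 ThpokAD against CD4 control cells whose matched promoter carries both elements. They were picked for the pair, so they are examples of it and do not show how common it is in the set. Each is 200 bases of RefSeq sequence (GRCm38.p6), 5′ to 3′ on the gene's strand, with 170 bases before the annotated start and 30 from it on. Capitals mark the NF-Y box (CCAAT on either strand) and the CHR (spelled TTTGAA or else spelled TTCGAA, on either strand). The Cks1b promoter lies at chr3:89418262-89418461 on the minus strand, the Prc1 promoter at chr7:80294281-80294480 on the plus strand and the Smc2 promoter at chr4:52439051-52439250 on the plus strand.
Cks1b: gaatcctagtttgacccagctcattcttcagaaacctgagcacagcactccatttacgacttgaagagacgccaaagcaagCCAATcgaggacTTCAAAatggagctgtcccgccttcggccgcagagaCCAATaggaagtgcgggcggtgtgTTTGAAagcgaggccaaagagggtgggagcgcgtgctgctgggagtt
Prc1: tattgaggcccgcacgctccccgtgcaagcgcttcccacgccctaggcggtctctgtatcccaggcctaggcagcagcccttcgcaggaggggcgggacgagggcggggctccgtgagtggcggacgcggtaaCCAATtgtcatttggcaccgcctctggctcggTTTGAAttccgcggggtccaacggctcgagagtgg
Smc2: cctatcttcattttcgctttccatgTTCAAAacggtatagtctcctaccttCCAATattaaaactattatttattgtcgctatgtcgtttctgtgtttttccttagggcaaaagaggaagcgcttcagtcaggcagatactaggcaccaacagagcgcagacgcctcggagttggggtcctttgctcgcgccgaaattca
In Cks1b a CHR began 17 bases before the start, with an NF-Y box 41 bases before it. In Prc1 the CHR began 5 bases before the start and the NF-Y box 37 bases before it. In Smc2 the NF-Y box lay 119 and a CHR 145 bases before the start, and another CHR match began 26 bases after it, runs past the printed stretch and is left in lower case.

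The promoters of Cks2 (chr13:51645062-51645261 on the plus strand) and Cenpa (chr5:30666716-30666915 on the plus strand) are shown beside them because these genes had another expression pattern. They were chosen after their values were seen.
Cks2: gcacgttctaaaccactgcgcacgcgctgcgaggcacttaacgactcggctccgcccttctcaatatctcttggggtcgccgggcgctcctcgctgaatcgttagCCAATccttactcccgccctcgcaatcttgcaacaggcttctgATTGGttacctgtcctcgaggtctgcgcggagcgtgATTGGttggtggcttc
Cenpa: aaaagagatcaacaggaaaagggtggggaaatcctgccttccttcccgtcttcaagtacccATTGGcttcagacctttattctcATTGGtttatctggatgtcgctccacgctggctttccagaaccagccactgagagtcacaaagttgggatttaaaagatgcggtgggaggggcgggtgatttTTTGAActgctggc
Cks2 had NF-Y boxes and no CHR match in its window. Cenpa had NF-Y boxes 109 and 86 bases before the start, and its CHR began 16 bases after it.

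Total counts per library were 16664474 to 38981516. Zbtb7b was at 0.698 to 0.875 CPM (edgeR's counts per TMM-scaled library size) in CD4 ThpokAD libraries, 18.8 to 24.0 CPM in CD8 control libraries and 38.5 to 48.9 CPM in CD4 control libraries. Cd4 was at 551.2 to 678.7 CPM in the CD4 ThpokAD libraries, against 0.222 to 2.26 CPM in the CD8 control libraries and 1295 to 1409 CPM in the CD4 control libraries. Cd8a was at 34.2 to 64.5 CPM in the CD4 ThpokAD libraries, against 743.3 to 912.6 CPM in the CD8 control libraries and 2.74 to 4.20 CPM in the CD4 control libraries. The targeted gene thus stood where the labels place it. In CD4 ThpokAD libraries Cd4 and Cd8a lay between the control groups. Over CD4 control cells edgeR's quasi-likelihood test called Cd8a higher (log2 3.93 ± 0.276, adjusted p = 0.000286). It also called Cd8b1 higher (log2 1.62 ± 0.276, adjusted p = 0.0178), and Cd4 was not called lower.

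Most of the 38 genes were higher in CD4 ThpokAD cells than in either control. Summed over the 38 genes, the level was 2648, 1634 and 1838 CPM in the 3 CD4 ThpokAD libraries, 487.3, 249.7 and 314.2 CPM in CD8 control libraries, and 524.2, 620.1 and 525.8 CPM in CD4 control libraries. Every CD4 ThpokAD library was above every control library, and the mean of 2040 ± 536 CPM was 3.66-fold that of CD4 control cells (556.7 ± 54.9 CPM) and 5.82-fold that of CD8 control cells (350.4 ± 122.9 CPM; SD, n = 3 each). Together the 38 genes held between 0.0260% and 0.262% of a library's counts. Within CD4 ThpokAD cells replicate 1 was the highest of its group for 33 of the 38 genes.

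**Figure D1:**
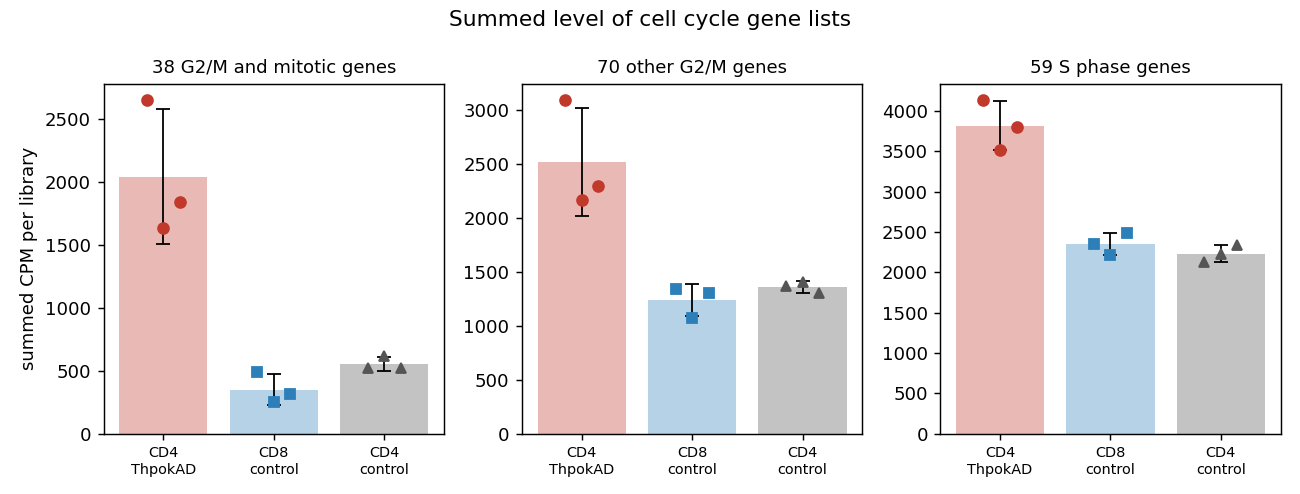
Summed CPM per library of the 38 G2/M and mitotic genes, of 70 other G2/M genes and of 59 DNA replication and S phase genes in the 3 groups; symbols are libraries, bars are means and error bars are SD (n = 3). In each of the 3 lists the CD4 ThpokAD libraries lie above all control libraries, and the 38 genes have the largest ratio of the mean to that of CD4 control cells, 3.66 against 1.85 for the other G2/M genes and 1.71 for the S phase genes.

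Against CD4 control cells, 12 of the 38 genes rose in CD4 ThpokAD cells at an adjusted p under 0.05 and 0 fell. Of all genes tested, 1.81% were called higher and 0.928% lower. The log2 fold change was above 0 for 36 of 38 genes, with a median of 2.64, where the median over all genes tested was 0.00. It ranged between -0.36 for Cenpa and 4.02 for Birc5. For 35 of the 38 genes every CD4 ThpokAD library was above every CD4 control library, which held for 13.2% of all genes tested. The exceptions were Cks2, Mad2l1 and Cenpa. Of the 26 genes not called, 18 had an unadjusted p under 0.05, all higher, and edgeR, DESeq2 and limma each called 0 lower. DESeq2 called 24 and limma 17 of the 38 genes higher, and edgeR 20 with only the 6 libraries compared and 27 with bias-adjusted deviances. Here and below, a call by edgeR is a call by its quasi-likelihood test in the main fit of all 9 libraries, unless another setting is named. A gene given as not called may be called by another tool or in another edgeR setting.

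Against CD8 control cells, 18 of the 38 genes rose in CD4 ThpokAD cells and 0 fell, where 4.63% of all genes tested were called higher and 1.91% lower. All 38 log2 fold changes were above 0, with a median of 3.20 and a range of 0.80 for Mad2l1 to 7.53 for Hmmr. Only Ccnf had overlapping libraries, and 37 of 38 genes lay wholly above the CD8 control libraries, against 14.6% of all genes tested. Called lower were 0 by DESeq2 and limma too, and 0 were lower at an unadjusted p under 0.05. The genes called in both comparisons numbered 11: Ccnb1, Cks1b, H2afx, Cdca8, Mad2l2, Kif20a, Prc1, Tpx2, Stmn1, Ncaph and Smc2. Both comparisons use the same CD4 ThpokAD libraries and are not independent. The share of all genes tested that was called in both is not given here, so this number is a list and no measure of overlap.

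**Figure D2:**
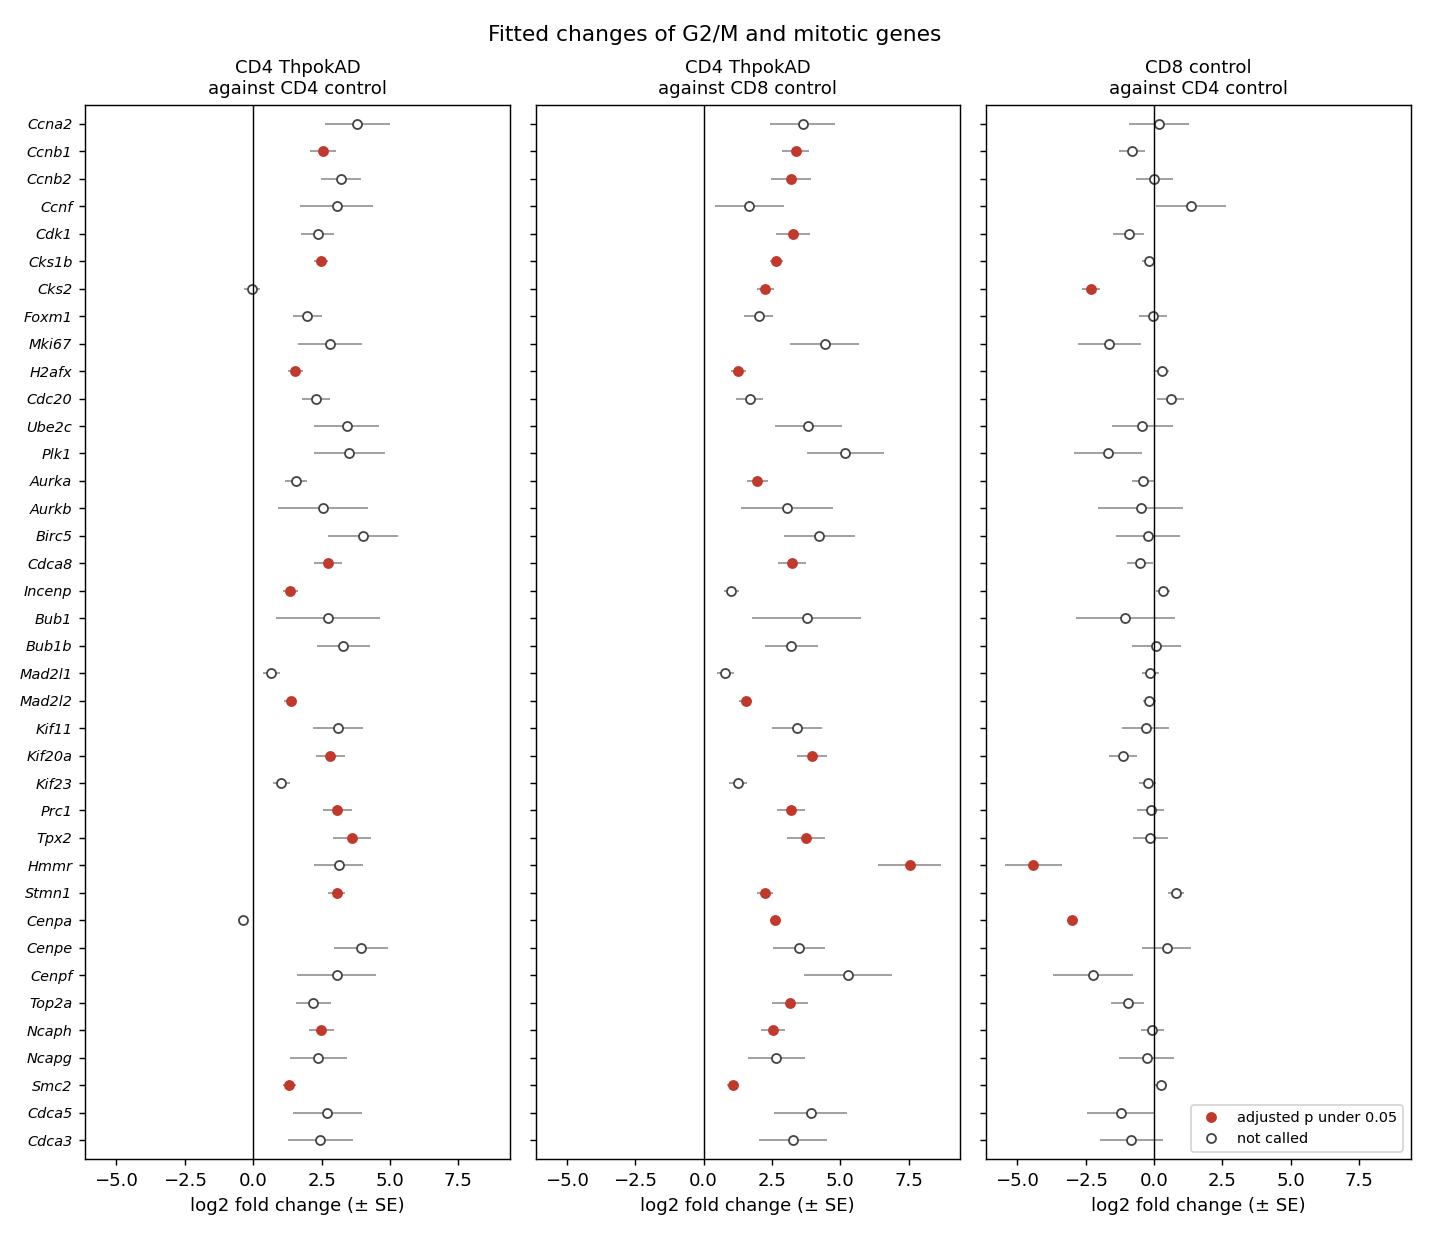
Fitted log2 fold changes (x axis, ± SE) of the 38 genes in CD4 ThpokAD against CD4 control cells, CD4 ThpokAD against CD8 control cells and CD8 control against CD4 control cells; filled symbols have an adjusted p under 0.05. The numbers called higher are 12, 18 and 0, and in the third panel Cks2, Hmmr and Cenpa are called lower.

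Among the cyclins and Cdk1 partners, Cks1b had the steadiest difference. Cks1b encodes a small subunit that binds cyclin-dependent kinases and helps the Skp2 ubiquitin ligase recognise the inhibitor p27 (chromosome 3, 89415472 to 89418383, minus strand, GRCm38). Its level was 36.1, 30.2 and 30.0 CPM in the CD4 ThpokAD libraries, against 5.18, 4.51 and 5.52 CPM in the CD8 control libraries and 5.09, 5.94 and 6.29 CPM in the CD4 control libraries. Every CD4 ThpokAD library lay above every control library, and the gene rose by 2.47 ± 0.247 (log2, SE) over CD4 control cells (adjusted p = 0.00143) and by 2.66 ± 0.248 over CD8 control cells (adjusted p = 0.000371). Ccnb1, the cyclin B1 that activates Cdk1 at mitotic entry, was at 43.2, 35.2 and 20.6 CPM in the CD4 ThpokAD libraries, against 4.43, 2.86 and 2.34 CPM in the CD8 control libraries and 4.47, 9.20 and 3.21 CPM in the CD4 control libraries. It rose 5.86-fold over CD4 control cells (log2 2.55 ± 0.488, adjusted p = 0.0293) and 10.3-fold over CD8 control cells (log2 3.36 ± 0.504, adjusted p = 0.00550).

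Cdk1, the mitotic kinase itself, was at 61.0, 21.7 and 27.1 CPM in the CD4 ThpokAD libraries, against 3.76, 1.60 and 5.82 CPM in the CD8 control libraries and 8.88, 3.66 and 8.91 CPM in the CD4 control libraries. It rose over CD8 control cells (log2 3.28 ± 0.620, adjusted p = 0.0160). Over CD4 control cells the main edgeR fit did not call it (log2 2.35 ± 0.597, adjusted p = 0.0802), although no library overlapped. DESeq2 called Cdk1 over CD4 control cells (adjusted p = 0.00168), as did edgeR with bias-adjusted deviances (0.0345) or with the replicate number as a block (0.0409). limma did not (0.0637), nor did edgeR with only the 6 libraries compared (0.0749). Ccnb2, the cyclin B2 of the Golgi-associated kinase pool, was at 85.8, 44.2 and 60.2 CPM in the CD4 ThpokAD libraries, against 13.8, 6.01 and 1.18 CPM in the CD8 control libraries and 5.22, 7.09 and 8.33 CPM in the CD4 control libraries. In the main edgeR fit it too was called over CD8 control cells only (log2 3.19 ± 0.727, adjusted p = 0.0350). The fitted difference over CD4 control cells was almost the same (3.20 ± 0.729, adjusted p = 0.0569). There DESeq2 (4.53e-05), limma (0.0445) and edgeR with only the 6 libraries (0.00696) or bias-adjusted deviances (0.0124) called Ccnb2. Over CD8 control cells DESeq2 (2.29e-05) and limma (0.0132) called it too, and edgeR with only the 6 libraries did not (0.0813). Ccna2, the cyclin A2 of S phase and G2, and Ccnf, the F-box subunit of a ubiquitin ligase, were called by edgeR in neither. Their log2 fold changes were 3.81 ± 1.20 and 3.05 ± 1.35 over CD4 control cells and 3.62 ± 1.18 and 1.68 ± 1.27 over CD8 control cells. With only the 6 libraries compared, edgeR called both over CD4 control cells (adjusted p = 0.00888 and 0.0132) and neither over CD8 control cells (0.184 and 0.586). Ccnf was at 32.8, 26.5 and 15.1 CPM in the CD4 ThpokAD libraries, against 19.6, 0 and 3.58 CPM in the CD8 control libraries and 3.60, 2.57 and 2.80 CPM in the CD4 control libraries, so 1 CD8 control library reached into the CD4 ThpokAD range.

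Cks2, the paralog of Cks1b, did not share its pattern. Its level was 32.5, 21.4 and 37.2 CPM in the CD4 ThpokAD libraries, against 5.10, 5.43 and 8.46 CPM in the CD8 control libraries and 33.5, 36.2 and 23.7 CPM in the CD4 control libraries. The 2 CD4 groups overlapped (log2 -0.04 ± 0.304, adjusted p = 0.977), and both lay above the CD8 control libraries. Cks2 thus rose in CD4 ThpokAD over CD8 control cells by 2.26 ± 0.320 on the log2 scale (adjusted p = 0.00406).

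Among the transcription and chromatin genes, H2afx was called by edgeR and Mki67 and Foxm1 were not. Mki67 encodes Ki-67, the coat of mitotic chromosomes that is used as a proliferation marker. Its level was 296, 171 and 218 CPM in the CD4 ThpokAD libraries, against 28.6, 0 and 3.08 CPM in the CD8 control libraries and 22.5, 46.1 and 29.2 CPM in the CD4 control libraries. No CD4 ThpokAD library overlapped with the controls, yet the main edgeR fit called it in neither comparison (log2 2.81 ± 1.17 and adjusted p = 0.286 over CD4 control cells, 4.44 ± 1.26 and adjusted p = 0.0753 over CD8 control cells). Over CD4 control cells edgeR called Mki67 with only the 6 libraries compared (adjusted p = 0.0111) and with bias-adjusted deviances (0.0368). Over CD8 control cells it was called with bias-adjusted deviances (0.00299) and not with only the 6 libraries (0.140). Foxm1, the transcription factor of the G2/M programme, was at 38.6, 24.2 and 19.2 CPM in the CD4 ThpokAD libraries, against 10.7, 6.54 and 3.01 CPM in the CD8 control libraries and 9.44, 3.89 and 7.40 CPM in the CD4 control libraries. Its log2 fold changes of 1.98 ± 0.532 and 2.02 ± 0.532 over CD4 control and CD8 control cells did not pass (adjusted p = 0.0980 and 0.0590). DESeq2 called Foxm1 in both (adjusted p = 0.00698 and 0.00292), and limma called it over CD8 control cells (0.0351). Mki67 was called over CD8 control cells by DESeq2 (adjusted p = 0.0401) and limma (0.0291). H2afx, the histone H2AX that is phosphorylated at DNA breaks, was at 78.5, 52.1 and 68.0 CPM in the CD4 ThpokAD libraries, against 28.7, 18.5 and 34.98 CPM in the CD8 control libraries and 19.1, 23.2 and 25.5 CPM in the CD4 control libraries. H2afx rose over both, by 1.55 ± 0.271 over CD4 control cells (log2, adjusted p = 0.0199) and by 1.27 ± 0.268 over CD8 control cells (adjusted p = 0.0258).

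**Figure D3:**
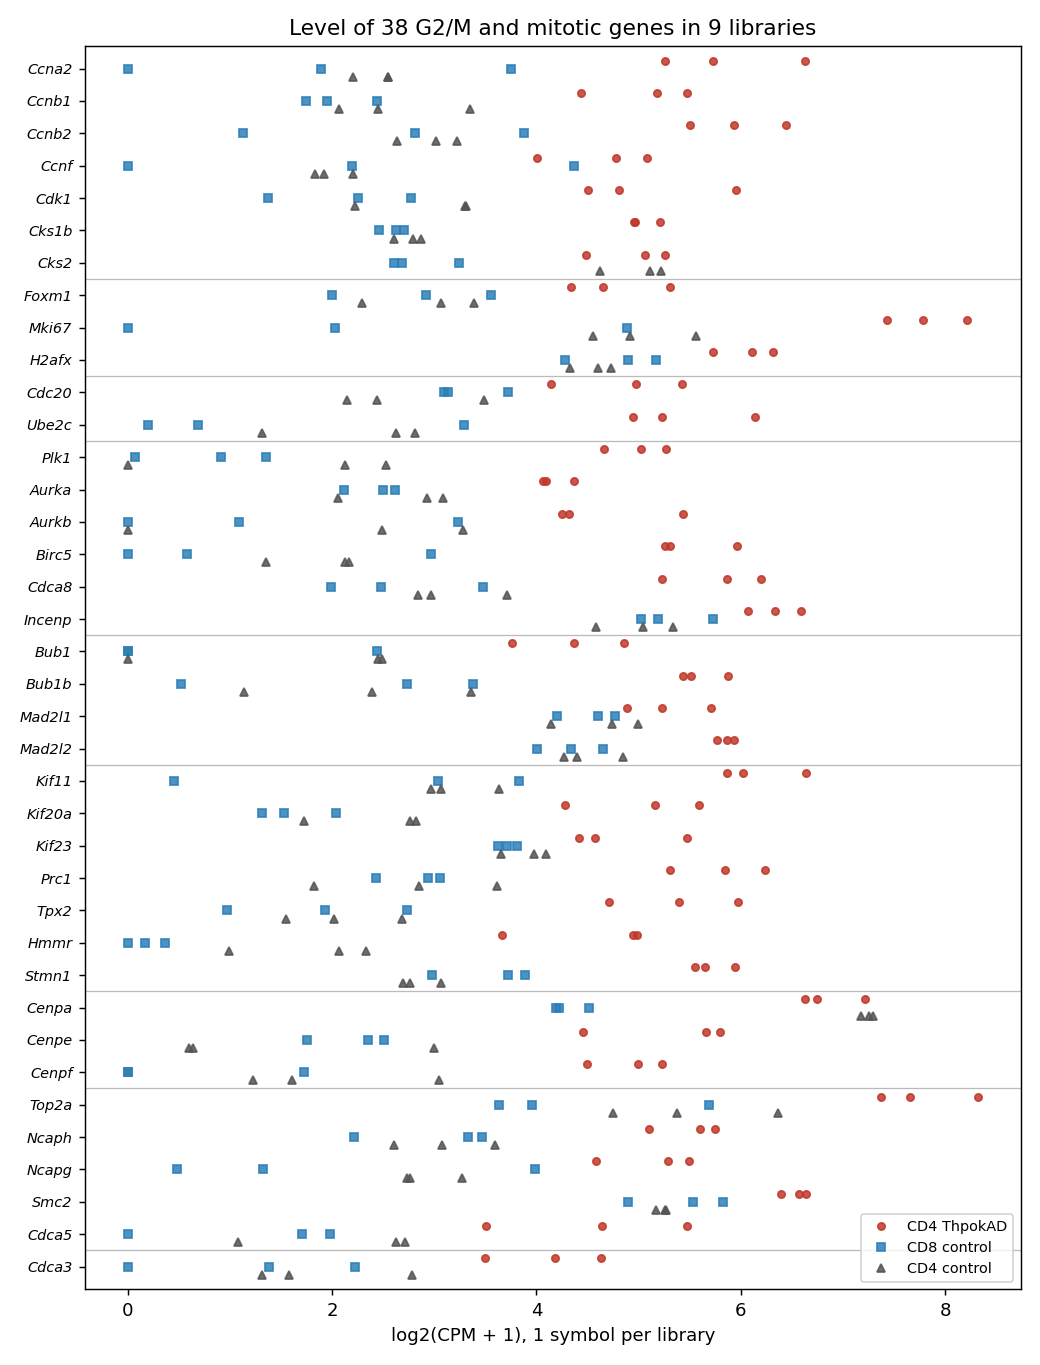
Level of each of the 38 genes in the 9 libraries as log2(CPM + 1), with 1 symbol per library, grouped by role from the cyclins at the top to Cdca3 at the bottom. CD4 ThpokAD libraries lie to the right of both controls for most genes, while for Cks2 and Cenpa they lie with the CD4 control libraries.

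The 2 anaphase-promoting complex genes were not called by edgeR and were called by other tools. Cdc20, which activates this ubiquitin ligase and is the target of the spindle checkpoint, had log2 fold changes of 2.30 ± 0.507 over CD4 control cells (adjusted p = 0.0510) and 1.69 ± 0.494 over CD8 control cells (adjusted p = 0.0830). Ube2c, its ubiquitin-conjugating enzyme, had 3.41 ± 1.20 and 3.83 ± 1.22 (adjusted p = 0.202 and 0.107). DESeq2 called Cdc20 (adjusted p = 0.000362) and Ube2c (0.0135) over CD4 control cells, and both over CD8 control cells (0.00925 and 0.00210). limma called Cdc20 over CD4 control cells (adjusted p = 0.0274) and Ube2c over CD8 control cells (0.0221). Neither gene had overlapping libraries in these comparisons.

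Of the mitotic kinases and the chromosomal passenger complex, the passenger subunits Cdca8 and Incenp rose over CD4 control cells. Cdca8 (borealin), which brings the complex to centromeres, was at 72.3, 36.4 and 57.4 CPM in the CD4 ThpokAD libraries, against 2.97, 10.1 and 4.56 CPM in the CD8 control libraries and 6.15, 12.1 and 6.82 CPM in the CD4 control libraries. It rose 6.61-fold over CD4 control cells (log2 2.73 ± 0.506, adjusted p = 0.0260) and 9.44-fold over CD8 control cells (log2 3.24 ± 0.516, adjusted p = 0.00740). Incenp, the scaffold of the complex, was at 95.4, 79.5 and 65.9 CPM in the CD4 ThpokAD libraries, against 52.1, 31.5 and 35.5 CPM in the CD8 control libraries and 31.9, 39.4 and 23.0 CPM in the CD4 control libraries. Incenp rose 2.55-fold over CD4 control cells (log2 1.35 ± 0.271, adjusted p = 0.0350). Over CD8 control cells the main edgeR fit did not call it (log2 1.02 ± 0.269, adjusted p = 0.0598), while DESeq2 (0.00447) and limma (0.0444) did.

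The kinase of the complex, Aurkb, was at 42.2, 18.9 and 17.98 CPM in the CD4 ThpokAD libraries, against 8.40, 0 and 1.13 CPM in the CD8 control libraries and 0, 8.74 and 4.60 CPM in the CD4 control libraries. Each control group held a library with no Aurkb count. The main edgeR fit called the gene in neither comparison (adjusted p = 0.530 over CD4 control and 0.342 over CD8 control cells). With bias-adjusted deviances edgeR called it over CD8 control cells (0.0306). Birc5 (survivin) had the highest log2 fold change over CD4 control cells, 4.02 ± 1.28, and did not pass (adjusted p = 0.159). Its level was 61.4, 38.5 and 37.2 CPM in the CD4 ThpokAD libraries, against 6.82, 0 and 0.493 CPM in the CD8 control libraries and 1.55, 3.49 and 3.38 CPM in the CD4 control libraries. All 3 CD4 ThpokAD libraries stood above every control library. Over CD4 control cells edgeR called Birc5 with only the 6 libraries compared (adjusted p = 0.00696) and with bias-adjusted deviances (0.00800), and limma did not call it (0.121). Over CD8 control cells its log2 fold change was 4.23 ± 1.29 (adjusted p = 0.0943). There limma (0.0177) and edgeR with bias-adjusted deviances (0.0015) called it, and edgeR with only the 6 libraries did not (0.152). DESeq2 gave no adjusted p for Birc5.

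Plk1, the polo-like kinase of mitotic entry and spindle assembly, was at 37.5, 31.6 and 24.2 CPM in the CD4 ThpokAD libraries, against 0.878, 0.0485 and 1.55 CPM in the CD8 control libraries and 4.78, 0 and 3.38 CPM in the CD4 control libraries. Neither comparison passed in the main edgeR fit (log2 3.51 ± 1.29 and adjusted p = 0.221 over CD4 control cells, 5.18 ± 1.40 and adjusted p = 0.0633 over CD8 control cells). DESeq2 called Plk1 in both (adjusted p = 0.0349 and 0.000156), and limma called it over CD8 control cells only (0.0400). With bias-adjusted deviances edgeR called it in both (0.00397 and 0.000286), and with only the 6 libraries compared over CD8 control cells only (0.0266). Aurka, the kinase of centrosomes and spindle poles, was at 15.8, 16.02 and 19.7 CPM in the CD4 ThpokAD libraries, against 5.14, 4.65 and 3.33 CPM in the CD8 control libraries and 3.17, 6.63 and 7.46 CPM in the CD4 control libraries. It rose over CD8 control cells (log2 1.97 ± 0.400, adjusted p = 0.0221). Over CD4 control cells the main edgeR fit did not call it (log2 1.57 ± 0.395, adjusted p = 0.0770), while DESeq2 (0.00558) and limma (0.0497) did.

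Among the 4 genes named for the spindle checkpoint only Mad2l2 was called by edgeR. Mad2l2 encodes Rev7, which is related in sequence to Mad2 but is best known as a subunit of DNA polymerase zeta and of the shieldin complex at DNA breaks. Its level was 57.2, 53.6 and 60.0 CPM in the CD4 ThpokAD libraries, against 15.1, 19.2 and 24.1 CPM in the CD8 control libraries and 18.3, 20.0 and 27.8 CPM in the CD4 control libraries. It rose by 1.37 ± 0.238 over CD4 control cells (log2, adjusted p = 0.0196) and by 1.55 ± 0.239 over CD8 control cells (adjusted p = 0.00639). Mad2l1, the checkpoint protein Mad2 itself, was at 51.3, 28.5 and 36.5 CPM in the CD4 ThpokAD libraries, against 26.3, 17.4 and 23.2 CPM in the CD8 control libraries and 25.8, 30.9 and 16.7 CPM in the CD4 control libraries. Mad2l1 had the smallest difference of the set over CD8 control cells (log2 0.80 ± 0.307, adjusted p = 0.176) and overlapped with CD4 control cells (log2 0.67 ± 0.307, adjusted p = 0.342). The checkpoint kinases Bub1 and Bub1b had log2 fold changes of 2.73 ± 1.89 and 3.30 ± 0.967 over CD4 control cells and 3.77 ± 1.98 and 3.21 ± 0.958 over CD8 control cells, and edgeR called neither. DESeq2 called Bub1b over CD4 control cells (adjusted p = 0.00235), and DESeq2 (0.00161), limma (0.0443) and edgeR with the replicate number as a block (0.0437) called it over CD8 control cells.

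The spindle motors and microtubule-binding proteins held 4 of the 12 genes called over CD4 control cells. Stmn1 encodes stathmin, which binds tubulin and destabilises microtubules (chromosome 4, 134468320 to 134473843, plus strand, GRCm38). Its level was 60.7, 46.0 and 49.0 CPM in the CD4 ThpokAD libraries, against 13.8, 6.88 and 12.2 CPM in the CD8 control libraries and 5.78, 7.37 and 5.48 CPM in the CD4 control libraries. It rose 8.35-fold over CD4 control cells (log2 3.06 ± 0.311, adjusted p = 0.00145) and 4.72-fold over CD8 control cells (log2 2.24 ± 0.298, adjusted p = 0.00301). Prc1, which bundles the antiparallel microtubules of the central spindle, was at 74.5, 56.4 and 38.7 CPM in the CD4 ThpokAD libraries, against 4.39, 6.69 and 7.32 CPM in the CD8 control libraries and 2.55, 6.23 and 11.2 CPM in the CD4 control libraries. Prc1 rose 8.46-fold over CD4 control cells (log2 3.08 ± 0.520, adjusted p = 0.0177) and 9.20-fold over CD8 control cells (log2 3.20 ± 0.521, adjusted p = 0.00807).

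Tpx2, the spindle assembly factor that activates Aurora A, was at 61.9, 41.0 and 25.2 CPM in the CD4 ThpokAD libraries, against 0.962, 2.81 and 5.67 CPM in the CD8 control libraries and 3.04, 5.43 and 1.92 CPM in the CD4 control libraries. Tpx2 rose 12.3-fold over CD4 control cells (log2 3.62 ± 0.688, adjusted p = 0.0284) and 13.4-fold over CD8 control cells (log2 3.75 ± 0.689, adjusted p = 0.0140). Kif20a, a kinesin needed for cytokinesis, was at 47.1, 18.4 and 34.7 CPM in the CD4 ThpokAD libraries, against 1.88, 3.10 and 1.48 CPM in the CD8 control libraries and 2.30, 6.06 and 5.77 CPM in the CD4 control libraries. Kif20a rose 7.08-fold over CD4 control cells (log2 2.82 ± 0.519, adjusted p = 0.0253) and by 3.96 ± 0.547 on the log2 scale over CD8 control cells (adjusted p = 0.00363). Kif11, the kinesin that pushes spindle poles apart, and Kif23, a kinesin of the central spindle, were called by edgeR in neither comparison. Their log2 fold changes were 3.10 ± 0.907 and 1.03 ± 0.319 over CD4 control cells and 3.41 ± 0.918 and 1.25 ± 0.320 over CD8 control cells. DESeq2 called Kif11 over CD4 control cells (adjusted p = 0.00198) and both genes over CD8 control cells (0.000241 and 0.00472). limma called Kif11 over CD8 control cells only (0.0290).

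Hmmr, a hyaluronan receptor that also binds spindle microtubules, had the largest fitted difference between CD4 ThpokAD and CD8 control cells. Its counts were 613, 546 and 220 in CD4 ThpokAD, 3, 6 and 0 in CD8 control and 65, 56 and 17 in CD4 control libraries (30.6, 29.9 and 11.7 CPM, 0.125, 0.291 and 0 CPM, and 4.04, 3.20 and 0.991 CPM). The fitted log2 fold change of 7.53 ± 1.14 over CD8 control cells (adjusted p = 0.00568) rests on these few CD8 control counts. Over CD4 control cells it was 3.13 ± 0.894 and was not called in the main edgeR fit (adjusted p = 0.119), while DESeq2 (0.00228) and limma (0.0475) called it.

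None of the 3 centromere and kinetochore genes was called by edgeR in CD4 ThpokAD against CD4 control cells, while DESeq2 (adjusted p = 0.000115) and limma (0.0169) called Cenpe higher. Cenpa encodes the histone H3 variant that marks centromeres (chromosome 5, 30666777 to 30674830, plus strand, GRCm38). Its level was 148, 106 and 97.8 CPM in the CD4 ThpokAD libraries, against 17.2, 17.6 and 21.9 CPM in the CD8 control libraries and 143, 151 and 156 CPM in the CD4 control libraries. The CD4 ThpokAD range reached into that of the CD4 control libraries (log2 -0.36 ± 0.179, adjusted p = 0.389), and both CD4 groups lay far above the CD8 control libraries, so Cenpa rose in CD4 ThpokAD over CD8 control cells by 2.63 ± 0.191 (log2, adjusted p = 8.36e-05). Cenpe, a kinetochore kinesin, and Cenpf, a large kinetochore-associated protein, had log2 fold changes of 3.95 ± 0.982 and 3.06 ± 1.44 over CD4 control cells and 3.49 ± 0.955 and 5.29 ± 1.61 over CD8 control cells, and edgeR called neither. Over CD8 control cells DESeq2 and limma called both, Cenpe at adjusted p = 0.000524 and 0.0442 and Cenpf at 0.0384 and 0.00771.

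Of the genes for chromosome structure, the condensin subunits Ncaph and Smc2 rose over both controls. Ncaph, the kleisin of condensin I, was at 52.6, 33.4 and 47.4 CPM in the CD4 ThpokAD libraries, against 10.03, 3.63 and 9.02 CPM in the CD8 control libraries and 5.09, 7.43 and 11.1 CPM in the CD4 control libraries. Ncaph rose by 2.50 ± 0.443 over CD4 control cells (log2, adjusted p = 0.0215) and by 2.55 ± 0.442 over CD8 control cells (adjusted p = 0.0107). Smc2, an ATPase common to both condensins, was at 93.6, 83.1 and 98.7 CPM in the CD4 ThpokAD libraries, against 55.9, 28.7 and 45.3 CPM in the CD8 control libraries and 37.3, 35.1 and 37.6 CPM in the CD4 control libraries. Smc2 rose by 1.32 ± 0.232 over CD4 control cells (log2, adjusted p = 0.0199) and by 1.08 ± 0.230 over CD8 control cells (adjusted p = 0.0265), the smallest called differences of the set in both comparisons.

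Top2a, the topoisomerase that untangles sister chromatids, was at 318, 164 and 200.1 CPM in the CD4 ThpokAD libraries, against 50.5, 14.5 and 11.4 CPM in the CD8 control libraries and 40.6, 81.6 and 25.8 CPM in the CD4 control libraries. It rose over CD8 control cells (log2 3.16 ± 0.650, adjusted p = 0.0234). Over CD4 control cells the main edgeR fit did not call it (log2 2.21 ± 0.625, adjusted p = 0.117). There DESeq2 called it (0.0259) and limma did not (0.0603). Ncapg, another condensin I subunit, Cdca5 (sororin), which protects cohesin, and Cdca3, a regulator of mitotic entry, were called in neither by the main edgeR fit. Their log2 fold changes were 2.39 ± 1.04, 2.72 ± 1.27 and 2.45 ± 1.19 over CD4 control cells. Over CD8 control cells they were 2.66 ± 1.05, 3.91 ± 1.34 and 3.27 ± 1.23. There DESeq2 called each of them (adjusted p = 0.0289, 0.00743 and 0.0217), and limma called Ncapg (0.0423).

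Between the controls the set did not rise in CD8 control cells. Of the 38 genes, 0 were called higher and 3 lower in CD8 control than in CD4 control cells, where 5.13% of all genes tested were called higher and 6.55% lower. At an unadjusted p under 0.05 there were 5 genes in all, and 0 were called higher with only the 6 libraries compared (4.01% of all genes), bias-adjusted deviances (6.67%), DESeq2 (8.57%) or limma (6.16%). The log2 fold change was above 0 for 10 of 38 genes, with a median of -0.25 against 0.01 over all genes tested. The libraries did not overlap for 0 genes in the higher direction (17.3% of all genes) and 3 in the lower direction (16.6%). These 3 were the genes called.

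Cenpa fell by 2.99 ± 0.194 (log2, adjusted p = 2.77e-05), Cks2 fell by 2.29 ± 0.320 (adjusted p = 0.00210) and Hmmr fell by 4.40 ± 1.03 (adjusted p = 0.0259) in CD8 control against CD4 control cells, with the library values given above. With any 1 library left out, Cenpa and Cks2 were still called. Hmmr was not called when CD4 control replicate 1 (adjusted p = 0.0665), CD4 control replicate 2 (0.0636) or CD8 control replicate 1 (0.0722) was absent, nor in the fit of only the 6 libraries compared (0.105). In Stmn1 the order of the controls was turned, at 10.97 ± 3.63 CPM in CD8 control and 6.21 ± 1.02 CPM in CD4 control cells (SD, n = 3), and was not called (log2 0.82 ± 0.292, adjusted p = 0.110).

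**Figure D4:**
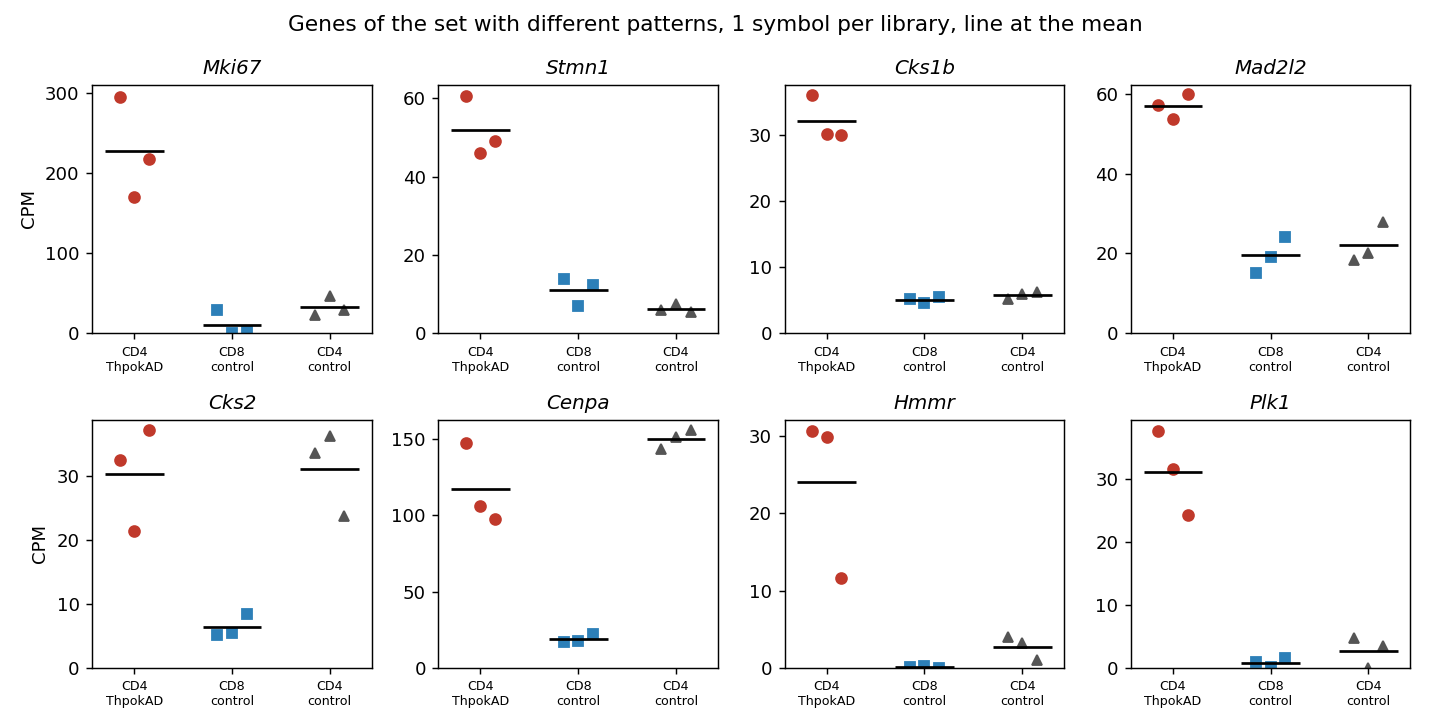
CPM per library (symbols) and group mean (line) of 8 genes in CD4 ThpokAD, CD8 control and CD4 control cells, on axes that start at 0. In Mki67, Stmn1, Cks1b, Mad2l2 and Plk1 both controls are low, in Cks2 and Cenpa the 2 CD4 groups are both high, and in Hmmr the CD8 control libraries lie at 0 to 0.291 CPM.

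Relative spread between libraries was widest in CD8 control cells. The median coefficient of variation over the 38 genes was 0.322 in CD4 ThpokAD, 0.606 in CD8 control and 0.393 in CD4 control cells. No CD4 ThpokAD library lacked a count for any of the 38 genes. In CD8 control cells 10 genes had at least 1 library with no count, 8 of them in replicate 2 and 4 in replicate 3, and in CD4 control cells 3 genes did. CD8 control replicate 1 was the highest of its group for 23 of the 38 genes.

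The calls over CD4 control cells changed when 1 library was left out. Such a fit also has fewer libraries. An effect of that library's values and of the smaller number of libraries cannot be told apart from these counts. The number of genes called was 2 without CD4 ThpokAD replicate 1, 10 without replicate 2 and 5 without replicate 3. It was 4, 3 and 6 without CD4 control replicates 1, 2 and 3, and 16, 16 and 13 without CD8 control replicates 1, 2 and 3. Cks1b and Stmn1 kept their call in all 9 of these fits, and the other 10 each lost it in at least 2, with adjusted p up to 0.117. Shares of all genes called with 1 library left out, or with the replicate block described below, are not given here. In the same 38 genes, the fit of only the 6 libraries compared called 20 higher (2.01% of all genes), bias-adjusted deviances 27 (2.47%), DESeq2 24 (4.91%) and limma 17 (2.45%). Over CD8 control cells those settings called 17 (3.1%), 36 (7.04%), 32 (9.25%) and 30 (5.82%). The number was 12 to 22 with 1 library left out, and Ccnb1, Cks1b, Cks2, Cdca8, Mad2l2, Kif20a, Prc1, Hmmr, Stmn1, Cenpa and Ncaph kept their call in all 9 fits. Aurka, Ccnb2, Cdk1, H2afx, Top2a, Smc2 and Tpx2 each lost it in at least 1, most often without CD4 ThpokAD replicate 1 (6 lost) or CD8 control replicate 2 (5 lost).

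Per kilobase of exon, H2afx (47.8 CPM per kb), Cks2 (43.9), Ccnb2 (41.4), Cks1b (28.5) and Stmn1 (27.0) had the highest mean levels of the set in CD4 ThpokAD cells and Cenpf the lowest (1.92). In CD8 control cells the highest levels were those of H2afx (19.8 CPM per kb), Incenp (9.18) and Cks2 (9.14). In CD4 control cells they were those of Cks2 (45.0 CPM per kb), Cenpa (25.6) and H2afx (16.3). The library kit does not mark strand, so reads in exons that overlap a neighbour, such as those of Ccna2 with Exosc9, Cdc20 with Elovl1, Kif20a with Cdc23 and Prc1 with Rccd1, cannot be assigned by strand.

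Other genes of the cell cycle were taken from lists, and differences between the lists and the 38 genes were not tested. Of 70 other G2/M and mitotic genes tested, 5 rose and 0 fell in CD4 ThpokAD against CD4 control cells, with a median log2 fold change of 2.05. Racgap1, a regulator of cytokinesis, was at 246.8, 222.9 and 206.3 CPM in the CD4 ThpokAD libraries, against 184.8, 126.6 and 221.0 CPM in the CD8 control libraries and 42.4, 34.0 and 25.9 CPM in the CD4 control libraries. It rose over CD4 control cells in CD4 ThpokAD (log2 2.72 ± 0.248, adjusted p = 0.000890) and in CD8 control cells (log2 2.38 ± 0.245, adjusted p = 0.000364). None of the 38 genes was called higher in both. Tacc3, Kif4, Spc24 and Ska1 were the other four called, and Ska1, a kinetochore coupler, had no count in any control library and was at least 65.1-fold higher in CD4 ThpokAD than in CD4 control cells, computed against 3 counts over the group. Over CD8 control cells 13 of the 70 rose and 0 fell (median 1.93).

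Of 59 DNA replication and S phase genes, 9 rose and 0 fell in CD4 ThpokAD against CD4 control cells (median log2 fold change 1.05), and 11 rose and 0 fell over CD8 control cells (median 0.85). The helicase subunit Mcm5 was at 149.1, 150.5 and 189.2 CPM in the CD4 ThpokAD libraries, against 61.7, 45.9 and 88.0 CPM in the CD8 control libraries and 40.3, 34.2 and 50.1 CPM in the CD4 control libraries, and rose by 1.97 ± 0.257 over CD4 control cells (log2, adjusted p = 0.00501). Mcm2, E2f2, Mcm6, Mcm3 and Tyms followed with log2 fold changes of 0.96 to 2.18. Of 18 G1 cyclins, inhibitors and pocket proteins, edgeR called Ccnd3, Cdkn2c, Cdk4 and Ccnd2 higher and 0 lower over CD4 control cells. At an unadjusted p under 0.05 there was 1 lower, and 1 was called lower by DESeq2, by limma and by edgeR with only the 6 libraries or with bias-adjusted deviances. Ccnd3, the cyclin D3 of G1, was at 413.4, 434.2 and 365.6 CPM in the CD4 ThpokAD libraries, against 610.1, 565.9 and 586.2 CPM in the CD8 control libraries and 222.2, 215.6 and 229.4 CPM in the CD4 control libraries, so here CD4 ThpokAD cells stood between the controls. None of 12 MuvB and DREAM subunits, the complexes that bind the CHR, was called over CD4 control cells by edgeR, DESeq2 or limma (median log2 fold change 0.15; 2 higher and 0 lower at an unadjusted p under 0.05), and 1 was called higher by edgeR with only the 6 libraries or with bias-adjusted deviances. Over CD8 control cells edgeR called Tfdp1 higher (adjusted p = 0.0489), and DESeq2 and limma each called 2.

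Markers of other cell types were set beside these values. Of 8 regulatory T cell markers, edgeR called Lrrc32 and Itgae higher in CD4 ThpokAD than in CD4 control cells and 0 lower. The others, with Foxp3 among them, were not called. At an unadjusted p under 0.05 there were 4 higher and 1 lower, and DESeq2 called 2 higher and 1 lower. Tnfrsf18 was at 52.4 to 66.7 CPM in the CD4 ThpokAD libraries, below the 78.3 to 102.5 CPM of the CD4 control libraries. Nrp1 had means of 164.8 and 168.9 CPM in these groups. The summed level of the 8 was 661.5 to 905.9 CPM in the CD4 ThpokAD libraries, against 152.4 to 176.5 CPM in the CD8 control libraries and 569.9 to 635.7 CPM in the CD4 control libraries. Foxp3, which defines these cells, was at 50.1, 11.8 and 25.6 CPM in the CD4 ThpokAD libraries, against 0.251, 0 and 0.0247 CPM in the CD8 control libraries and 0, 4.52 and 2.33 CPM in the CD4 control libraries. Among the CD4 ThpokAD libraries Foxp3 was highest in replicate 1 and lowest in replicate 2, as was the summed level of the 38 genes, while the summed level of the 8 markers was lowest in replicate 3. The part of these cells in the result was not tested.

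Of 12 myeloid markers tested, Itgam and Cd68 rose over CD4 control cells (summed level 400.2 to 511.6 CPM in the CD4 ThpokAD libraries, against 167.5 to 399.7 CPM in the CD8 control libraries and 205.9 to 352.9 CPM in the CD4 control libraries). The log2 fold change was above 0 for 10 of the 12 (median 0.78), against 50.2% of all genes tested. At an unadjusted p under 0.05 there were 5 myeloid markers higher and 0 lower. The scarce Mpo and Elane had no count in CD4 ThpokAD or CD8 control libraries. Their 82 and 14 counts in CD4 control cells all came from replicate 1. Of 9 NK cell markers, Klra4, Klrb1c and Klre1 rose (171.2 to 210.7, 184.1 to 201.5 and 54.6 to 66.1 CPM in the same order of groups). The log2 fold change was above 0 for 8 of the 9 NK cell markers (median 2.53), and 5 were higher and 0 lower at an unadjusted p under 0.05. Klra8 had no count in CD4 ThpokAD or CD4 control libraries. The part of myeloid and NK cells in the result was not tested. None of 11 B cell, 4 germinal centre B cell, 5 plasma cell, 6 erythroid or 9 dendritic cell and MHC class II markers tested was called over CD4 control cells by edgeR; at an unadjusted p under 0.05 there were 4 B cell markers and 1 dendritic cell marker, and DESeq2 and limma each called 1 B cell marker higher. The germinal centre genes Mef2b and Rgs13 had no count in CD4 ThpokAD libraries. They had only 5 and 16 counts over the CD4 control and 5 and 20 over the CD8 control libraries, too few to compare the groups. The B cell sum was 282.5 to 481.7 CPM in the CD4 ThpokAD libraries, against 249.1 to 791.0 CPM in the CD8 control libraries and 509.4 to 693.4 CPM in the CD4 control libraries. Over CD8 control cells edgeR called 5 of 8 regulatory T cell markers higher, Foxp3 among them (adjusted p = 0.0226). It also called 4 of 9 dendritic cell and MHC class II and 3 of 12 myeloid markers higher. Of the NK cell and germinal centre B cell markers it called 1 each. Of all genes tested, 4.63% were called higher there. No B cell, plasma cell or erythroid marker was called, and no marker of these lists was called lower. The part of all these cells in the result was not tested.

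The elements of the G2/M programme were searched in the promoters of the set, with no test. RefSeq promoters of 300 bases, 250 before to 50 after the start, were matched for 30 of the 38 genes; Ccna2, Foxm1, H2afx, Aurkb, Incenp, Kif20a, Tpx2 and Stmn1 were not matched. An NF-Y box (CCAAT) was present in 26 of 30 genes (86.7%), against 37.4% of all 32851 promoters. A CHR (spelled TTTGAA or else spelled TTCGAA) was present in 23 of 30 (76.7%) against 19.2%, and both together in 22 of 30 (73.3%) against 7.53%. An E2F site, searched in the spelling TTCCCGC, in the spelling TTGGCGC and in the spelling TTCGCGC on either strand, was present in 8 of 30 (26.7%) against 8.07%. An NF-Y box on the other strand (ATTGG) can share bases with an E2F site, an NF-Y box can share its last base with a CHR, and a match is a description of the letters in the window.

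The members' profile was nearest to that of the other G2/M genes. Of 55 other G2/M genes with a promoter, 65.5% held an NF-Y box, 69.1% a CHR and 25.5% an E2F site, while of 48 S phase genes 62.5% held an NF-Y box, 22.9% a CHR and 64.6% an E2F site. In the 30 genes the 34 CHR matches had their median 17 bases before the start and the 64 NF-Y matches 79 bases before it. A CHR was present in 4 of 7 matched genes called over CD4 control cells (Cks1b, Prc1, Smc2 and Cdca8) and in 19 of 23 not called. No CHR match was found in the windows of Ccnb1, Mad2l2 and Ncaph, which were called, and of Cks2, Cenpe, Birc5 and Mad2l1, which were not.

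**Figure D5:**
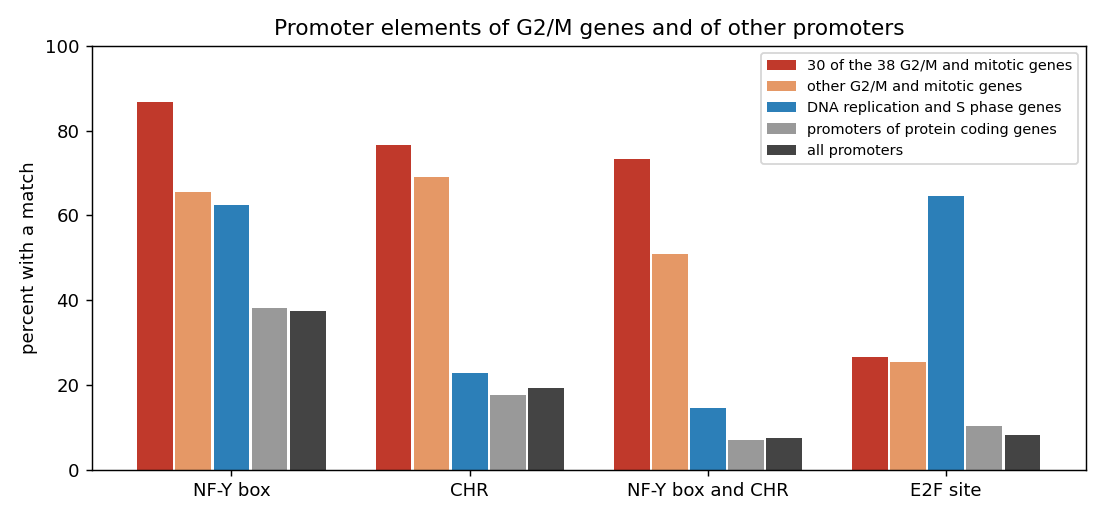
Percent of genes or promoters with a match to the NF-Y box, the CHR, both, or an E2F site in 300 bases around the start, for 30 of the 38 genes, 55 other G2/M genes, 48 S phase genes, promoters of protein-coding genes and all promoters. Matches to the NF-Y box and the CHR together are in 73.3% of the 30 genes, 50.9% of other G2/M genes, 14.6% of S phase genes and 7.53% of all promoters.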

How the data were processed

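Whole-number counts per gene symbol were deposited by the authors without normalization, with 1 column per library. The processing notes of the submitters list the mm10 build and the tools STAR, HTSeq, DESeq2, Trimmomatic and bcl2fastq 2.17 with no roles. The annotation and strand setting of the counting are not given in the sources used here. Per the labels' protocols, cDNA was made with kits for scarce RNA that leave strand unmarked. A second deposited table, the same counts scaled per library, was not used.

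The deposited counts of all 9 libraries were fitted in 1 model with edgeR 4.0.16 (R 4.3.3): filterByExpr by group (minimum count 10, minimum total 15), TMM scaling, quasi-likelihood tests and Benjamini-Hochberg adjustment over 15738 genes, called at an adjusted p under 0.05. Each SE is the size of the log2 fold change over the root of its F statistic. The fit was checked on simulated data. Alternatives used limma 3.58.1, DESeq2 1.42.0, other scalings, filters and libraries. Bounds and zeros cover counting error only. The members, gene lists and marker lists were chosen with earlier results of these data known. Library values are given for all genes called in any comparison, for 13 core genes, and for the highest and lowest in each comparison; of other lists, up to 6 called genes with the smallest adjusted p. Gene positions come from GENCODE M21 and promoters from RefSeq.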

Additional observations from a re-analysis of the deposited data

How the results depend on the processing

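Over CD4 control cells, the 12 genes called higher in CD4 ThpokAD cells became 20 with only the 6 libraries compared, 27 with bias-adjusted deviances and 24 with DESeq2, and 2 to 16 with 1 library left out; the other scalings and no filter gave 12. Over CD8 control cells the 18 became 36 with bias-adjusted deviances, 30 with limma and 32 with DESeq2, and 12 to 22 with 1 library left out. In CD8 control against CD4 control cells, leaving out 1 library gave 0 to 1 called higher and 2 to 6 called lower. The cause of these shifts was not tested. No direction of a called gene was reversed. Deviations from the group mean in same-numbered libraries of different groups had correlations between -0.0454 and 0.0620. These values do not settle whether such libraries share an animal or a batch, which the labels do not say. With the replicate number as a block, 10 genes were called over CD4 control cells, 17 over CD8 control cells and 3 lower between the controls. The median log2 fold changes were 2.56, 3.36 and -0.65 in the same order. Of the other G2/M genes, 5 were called over CD4 control cells by edgeR, 18 by DESeq2 and 10 by limma (13, 27 and 23 over CD8 control cells); of the S phase genes 9, 19 and 13 (11, 21 and 17). In the last 150 bases of the promoter window the E2F share was 16.7% in place of 26.7% (all promoters 4.65% in place of 8.07%). The share with both an NF-Y box and a CHR was 56.7% in place of 73.3% (all promoters 2.09% in place of 7.53%). The NF-Y box share was lower there too, and the CHR share of the matched genes was the same. Low control counts, with 15 zeros over the 6 control libraries, limit the precision of the fold changes.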
